A study of Mus musculus with 8 samples.

Results

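The regions described here are the 3054 narrowest of the 76872 accessible regions in an ATAC-seq atlas of mouse induced pluripotent stem cells. Each of them was exactly 73 bp wide, the smallest width in the list, and they were chosen by that width alone. ATAC-seq uses the Tn5 transposase to insert sequencing adapters into DNA that is not wrapped or blocked by protein, so that reads pile up over open chromatin. The cells were a clonal line carrying FUCCI2, a pair of fluorescent reporters of the phase of the cell cycle, kept on irradiated feeders in a serum medium that also held LIF and 2i, the inhibitors of the kinases MEK and GSK3. Of the 8 libraries, 2 came from cells shaken off in mitosis after 6 hours in nocodazole at 200 ng/ml (0 hours of release), 2 from such cells 1 hour after release, 2 from such cells 3 hours after release, and 2 from untreated asynchronous cells. The atlas is 1 list of positions for all of these libraries, with no value per library, so no 73 bp region could be assigned to a group, and the depth behind each region is unknown.

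Open chromatin in stem cells is known to fall into wide nucleosome-free stretches at the promoters of active genes and narrower sites at enhancers, silent promoters and single factor binding sites. A region reported by a peak caller is a stretch in which reads exceed the local background, so its width depends on the extent of the opening and also on the number of reads. The narrowest regions are thus the entries of an atlas with the least sequence in them. Their positions relative to genes and to other regions were not used to choose them and are compared below with those of the 73818 wider regions, and with the 15806 regions of 74 to 150 bp, which were the next in width. Intervals are 95% intervals for counting error, which treat regions as independent, and neighbouring regions are not fully so.

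The width of 73 bp stood apart in the atlas, and since width chose the members this is given as a description. There were 3054 regions of 73 bp and 224 of 74 bp. Over the widths from 74 to 93 bp, the count at a single width lay between 174 and 352 with a median of 215.5, so 73 bp held 14.2 times as many. Smaller excesses were found at 75, 78, 83 and 88 bp, with 273, 352, 340 and 252 regions. At 78 bp this compares with 187 regions that were 1 bp narrower and 222 that were 1 bp wider, and at 83 bp with 187 and 174. The 73 bp regions made up 3.97% of the regions and, at 223 kb, 0.793% of the 28.1 Mb that the atlas covered. The regions of 74 bp, just outside the rule, lay at gene ends in 7.59% of cases, inside genes in 41.5% and between genes in 50.9%, against 9.20%, 42.7% and 48.1% of the 73 bp regions.

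**Figure D1:**
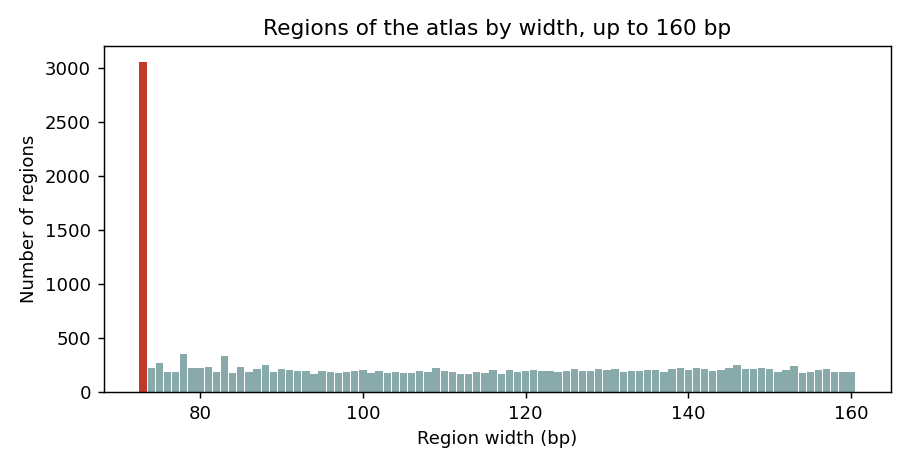
Number of atlas regions (vertical axis) at each width in bp (horizontal axis), up to 160 bp, with 73 bp in red. The bar at 73 bp reaches 3054 regions, while the widths from 74 to 93 bp hold 174 to 352 each.

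Sequences at the narrowest regions are shown where the reference gives them, for those that lay wholly within a promoter window of 250 bases before to 50 after a RefSeq start site (build GRCm38.p6). Of the 3054 regions, 41 did so, 31 of them at protein-coding genes, and in 21 of these 31 no other region had its midpoint within 1 kb of the start site. Their midpoints lay from 209 bp upstream to 7 bp downstream of the nearest start, with a median of 76 bp upstream, and 40 of the 41 were upstream. That side was largely fixed by the window, which reaches 250 bases before the start and 50 after it. Without the window, 30 regions of 73 bp had midpoints within 200 bp upstream of a protein-coding start site and 15 within 200 bp downstream. The sequences below are each a complete 73 bp region from those 21, on the strand of the gene, with matches to the motifs searched in capitals. These genes were picked with their values known. The edge of another region still lay 555 bp from that of Pih1d1 and 899 bp from that of Hapln1.

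The first set holds GC boxes, the site of Sp and Klf family factors. Slc29a1 encodes a nucleoside transporter and its region lay at chr17:45599575-45599647 (minus strand). Gpr4 encodes a receptor that senses protons, with its region at chr7:19212488-19212560 (plus strand), and Fbxo17 encodes a substrate adaptor of ubiquitin ligases, with its region at chr7:28716704-28716776 (plus strand).
Slc29a1: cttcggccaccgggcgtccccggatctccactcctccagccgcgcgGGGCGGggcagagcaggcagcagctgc
Gpr4: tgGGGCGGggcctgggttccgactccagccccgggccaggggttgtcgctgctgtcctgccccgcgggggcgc
Fbxo17: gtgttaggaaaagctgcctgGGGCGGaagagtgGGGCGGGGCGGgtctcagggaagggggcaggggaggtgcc

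The second set holds letter matches to other promoter elements, whatever their distance from the start. Selenbp1, which encodes a selenium-binding protein, and Pih1d1, which encodes a subunit of a chaperone complex, had a CCAAT box in their regions at chr3:94932971-94933043 and chr7:45155737-45155809 (both plus strand). Ttll6, which encodes an enzyme that adds glutamate chains to tubulin, had a TATAAA match in its region at chr11:96133627-96133699 (plus strand). The midpoint of that region lay 123 bp upstream of the start, and whether the match acts as a TATA box was not tested.
Selenbp1: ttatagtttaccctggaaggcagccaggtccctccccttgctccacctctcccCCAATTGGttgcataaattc
Pih1d1: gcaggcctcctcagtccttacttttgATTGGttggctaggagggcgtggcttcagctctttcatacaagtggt
Ttll6: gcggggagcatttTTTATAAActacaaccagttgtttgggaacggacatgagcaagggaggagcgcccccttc

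The third set holds matches to sites of single factors. The region of Cdkn1a, at chr17:29090922-29090994 (plus strand), held a p53 half-site, and Cdkn1a encodes the cyclin-dependent kinase inhibitor p21, a textbook target of p53. The region of Hapln1, which encodes a link protein of the extracellular matrix, held the octamer core at chr13:89540546-89540618 (plus strand), and that of Nlrp4f, of the NLR family, held an AP-1 match at chr13:65205874-65205946 (minus strand). Zfp641, a zinc finger gene whose 73 bp region at chr15:98296196-98296268 (minus strand) was 37952 bp from any other region, had none of the motifs.
Cdkn1a: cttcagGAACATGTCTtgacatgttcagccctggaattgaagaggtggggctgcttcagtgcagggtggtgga
Hapln1: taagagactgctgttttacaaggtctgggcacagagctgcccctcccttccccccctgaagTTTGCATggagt
Nlrp4f: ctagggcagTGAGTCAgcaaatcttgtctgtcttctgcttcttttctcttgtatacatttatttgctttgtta
Zfp641: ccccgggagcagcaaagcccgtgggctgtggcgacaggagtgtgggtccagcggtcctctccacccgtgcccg

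The motifs were searched on both strands, and overlapping matches run together in capitals. GGGCGG (GC box) was present in 8 of the 41 regions (19.5%, Wilson interval 10.2 to 34.0%), against 30.8% of 5203 wider regions read over their central 73 bp in the same windows, 27.2% of those of 74 to 150 bp and 17.8% of all promoter windows read over 73 bp at the median position. CCAAT was present in 5 regions (12.2%), against 16.5% of the wider regions and 15.5% of all promoters. TGANTCA (AP-1) was present in 2 (4.88%, interval 1.35 to 16.1%), against 0.980% and 2.20%. TATAAA, the letters of the element bound by TBP, was present in 1 region (2.44%), against 1.29% of the wider regions and 2.98% of all promoters. The octamer core, ATGCAAA, was likewise present in 1, against 1.10% of the wider regions and 1.25% of all promoters. The p53 half-site was present in 1, against 1.81% of the wider regions and 1.75% of all promoters. CCGGAAG (ETS), CACGTG (E-box) and CATTGTT (Sox) had no match among the 41, against 5.11%, 3.36% and 0.384% of the wider regions, and 2.31%, 2.08% and 0.932% of all promoters. With 41 sequences, the interval of each of these shares held the share of all promoters. No motif matched in 23 of the 41.

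In base composition, the 41 regions at start sites had a median GC content of 58.9% (quartiles 52.1 and 63.0%). The central 73 bp of the wider regions had 64.4% (56.2 and 71.2%), those of 74 to 150 bp had 60.3%, and all promoters had 54.8%. The median number of CpG dinucleotides was 2 per 73 bp in the narrowest regions, against 5 in the wider ones, 3 in those of 74 to 150 bp and 2 in all promoters. In 10 of the 41 (24.4%) there was no CpG at all, against 5.19% of the wider regions, 13.9% of those of 74 to 150 bp and 27.2% of all promoters. GC content among the 41 ran from 35.6% to 79.5%. By these measures the narrowest promoter regions were spread between CpG-rich sequences, such as that of Gpr4 with 7 CpG, and sequences without any, such as those of Cdkn1a, Selenbp1, Hapln1 and Nlrp4f.

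Regions of 73 bp were rare at gene ends. The midpoint of each region was set against the outer limits of protein-coding genes. Within 1 kb of a limit it was called at a gene end, farther in it was called inside, and elsewhere between genes. Of the 73 bp regions, 281 (9.20%, interval 8.23 to 10.3%) lay at gene ends, against 14681 (19.9%) of the wider regions, a difference of -10.7 percentage points (Newcombe interval -11.7 to -9.57). Inside genes were 1304 (42.7%), against 36.3% of the wider regions, a difference of 6.40 points (4.62 to 8.20). Between genes were 1469 (48.1%), against 43.8%, a difference of 4.29 points (2.48 to 6.10). The share at gene ends was below that of the wider regions on each of the 21 chromosomes, and averaged 9.39% ± 3.06 for 73 bp regions and 19.8% ± 2.66 for wider regions (SD over 19 autosomes).

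Relative to the genome, the narrowest regions were still more frequent near genes than even spacing would give. Each chromosome was measured from its first gene or region to its last, 2704 Mb in all, of which 2.93% lay within 1 kb of a gene end, 36.6% inside genes and 60.5% between genes. The 73 bp regions exceeded the first of these shares and the second, and were below the third. Assembly gaps were not removed from the span.

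No difference in class was resolved between 73 bp regions and the regions next in width. Those of 74 to 150 bp lay at gene ends in 9.66% of cases, inside genes in 41.5% and between genes in 48.8%. The differences, 73 bp minus 74 to 150 bp, were -0.460 points (interval -1.54 to 0.708), 1.18 points (-0.731 to 3.10) and -0.716 points (-2.65 to 1.22), so that differences of more than about 3 points in either direction lay outside the intervals. The share at gene ends stayed between 7.76% and 11.1% up to a width of 280 bp. It was 14.6% at 281 to 399 bp, 23.6% at 400 to 599 bp, 43.6% at 600 to 999 bp and 56.4% at 1000 bp and more.

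**Figure D2:**
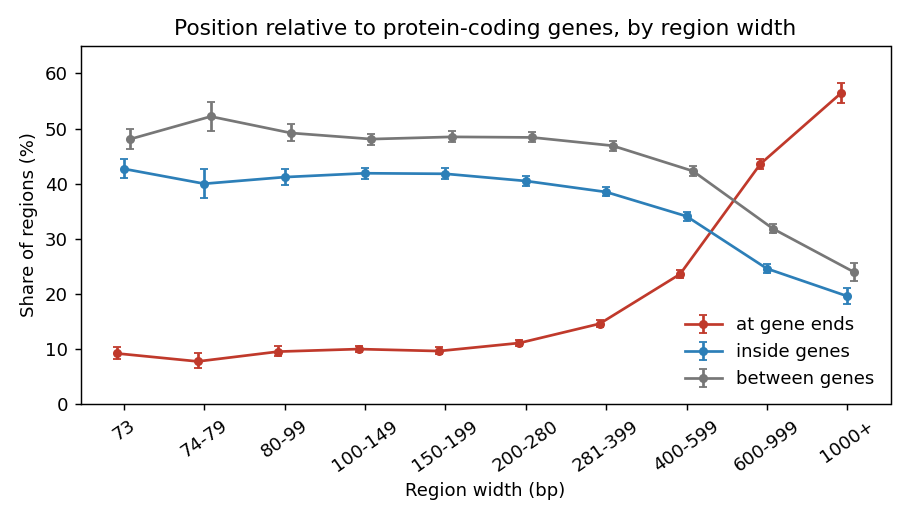
Share of regions in percent (vertical axis) at gene ends, inside genes and between genes, for 10 classes of width in bp (horizontal axis), with 95% Wilson intervals as bars. At 73 bp, 9.20% of regions lay at gene ends, close to the classes up to 280 bp, and the share reached 56.4% in the widest class.

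Distances told the same order. The median distance from the midpoint of a 73 bp region to the nearest end of a protein-coding gene was 17.2 kb (interval 15.7 to 18.6, quartiles 4.37 and 64.7), against 13.4 kb (13.2 to 13.7) for wider regions, 17.0 kb (16.3 to 17.6) for regions of 74 to 150 bp and 9.45 kb for regions of 300 bp or more. A further 914 regions of 73 bp (29.9%) lay 1 to 10 kb from a gene end, against 24.8% of the wider ones, and 964 (31.6%) lay 10 to 50 kb away, against 29.1%. Beyond 500 kb lay 104 (3.41%, interval 2.82 to 4.11%), against 2.86% of the wider regions and 2.56% (2.32 to 2.81%) of those of 74 to 150 bp.

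Gene types other than protein-coding were seldom met. A lncRNA gene had an end within 1 kb of 118 regions of 73 bp (3.86%, interval 3.24 to 4.61%), against 6.02% of the wider regions and 4.40% of those of 74 to 150 bp. Ends of tRNA genes, which are transcribed by RNA polymerase III from short internal promoters, lay within 1 kb of 3 (0.0982%, interval 0.0334 to 0.288%), against 0.370% (0.329 to 0.416%) of the wider regions and 0.253% of those of 74 to 150 bp, a share that the interval of the 73 bp regions held. Pseudogenes lay near 38 (1.24%, 0.908 to 1.70%), against 1.06% of the wider regions. Genes of miRNA, snoRNA, snRNA and rRNA lay near 7, 4, 4 and 2 regions of 73 bp, and for each of these types the interval held the share of the wider regions.

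Around start sites, the peak that wider regions form was much lower. Start sites with strand were given for 17469 of the 21900 protein-coding genes, on chromosomes that held 2945 of the 73 bp regions. Of these, 57 (1.94%, interval 1.50 to 2.50%) had their midpoint within 250 bp of a start site, against 11.8% of the wider regions, a difference of -9.87 points (-10.4 to -9.25), and 2.39% of those of 74 to 150 bp, a difference of -0.454 points (-0.961 to 0.154). From 251 to 1000 bp upstream lay 70 (2.38%, 1.89 to 2.99%), against 2.11% of the wider regions and 1.45% of those of 74 to 150 bp. The difference from those of 74 to 150 bp was 0.927 points (0.396 to 1.57). From 251 to 1000 bp downstream lay 81 (2.75%), against 3.17% and 3.00%, with both intervals of the difference holding 0.

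**Figure D3:**
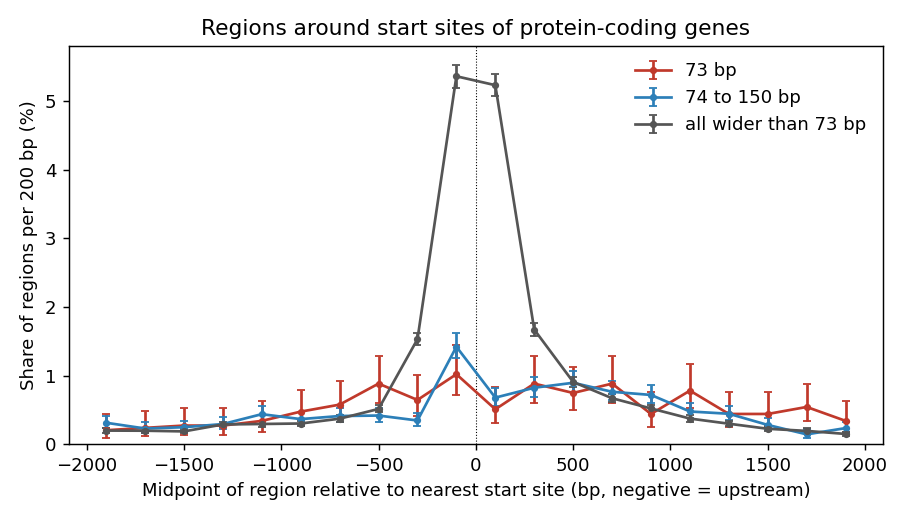
Share of regions in percent per 200 bp (vertical axis) by the position of their midpoint relative to the nearest start site of a protein-coding gene in bp (horizontal axis, negative upstream), with 95% Wilson intervals. Wider regions peak at 5.36% and 5.23% on either side of the start, where 73 bp regions reach 1.02% and 0.509%.

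Most narrow regions on the shoulders of a start site had a wider region at the start itself. Of the 70 regions of 73 bp that lay 251 to 1000 bp upstream, 44 (62.9%, interval 51.1 to 73.2%) had as their nearest wider region one that reached into the 250 bp on either side of the same start. The same was true of 63.5% of those of 74 to 150 bp in this band (difference -0.656 points, -13.8 to 11.6). Downstream it was 61 of 81 (75.3%), against 75% of those of 74 to 150 bp (difference 0.309 points, -10.7 to 9.41). For all wider regions the shares were 33.9% upstream and 49.6% downstream. These are not set against the 73 bp regions, because a wide region near a start can itself reach into those 250 bp. The region at the start had a median width of 538 bp upstream and 593 bp downstream for the 73 bp regions, and the median gaps were 271 and 266 bp. Between the ends of a gene, the start was the nearer in 178 of the 227 gene-end regions of 73 bp whose gene had a strand (78.4%, 72.6 to 83.3%), against 89.3% of the wider regions and 71.2% of those of 74 to 150 bp. As a share of all regions of their width, 1.60% of the 73 bp regions and 1.69% of the wider ones lay at the far end (difference -0.0848 points, -0.485 to 0.433). Among those of 74 to 150 bp it was 2.16%, a difference of -0.559 points (-1.02 to -0.00539).

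The 73 bp regions also lay nearer to other regions than did those of similar width. Regions in the atlas never overlapped and were at least 163 bp apart. The median gap from a 73 bp region to the nearest other region was 3.97 kb (interval 3.63 to 4.38, quartiles 0.692 and 14.0), against 5.64 kb (5.55 to 5.73) for the wider regions and 4.62 kb (4.46 to 4.79) for those of 74 to 150 bp. To compare all widths against the same neighbours, the nearest region wider than 73 bp was then taken. Within 5 kb there was such a region for 1613 of the 73 bp regions (52.8%, 51.0 to 54.6%), against 45.8% of the wider regions, a difference of 7.04 points (5.23 to 8.84). Against the 50.7% of those of 74 to 150 bp, the difference was 2.13 points (0.196 to 4.06).

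At shorter distances, chosen after seeing the data, the 73 bp regions were also above the next widths. A wider region lay within 1 kb of 871 regions of 73 bp (28.5%, 26.9 to 30.1%), against 22.2% of the wider regions and 24.0% (23.4 to 24.7%) of those of 74 to 150 bp, differences of 6.36 points (4.76 to 8.02) and 4.48 points (2.77 to 6.23). Regions of 74 to 79 bp, the nearest in width, had one in 21.4% of cases (19.4 to 23.6%). Within 250 bp there was a wider region for 346 regions of 73 bp (11.3%, 10.3 to 12.5%), against 7.76% of the wider regions, 8.57% of those of 74 to 150 bp and 6.44% (5.29 to 7.83%) of those of 74 to 79 bp. At 10 kb the difference from those of 74 to 150 bp was 1.41 points with an interval that held 0 (-0.434 to 3.22), and at 50 kb it was -0.515 (-1.56 to 0.435).

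**Figure D4:**
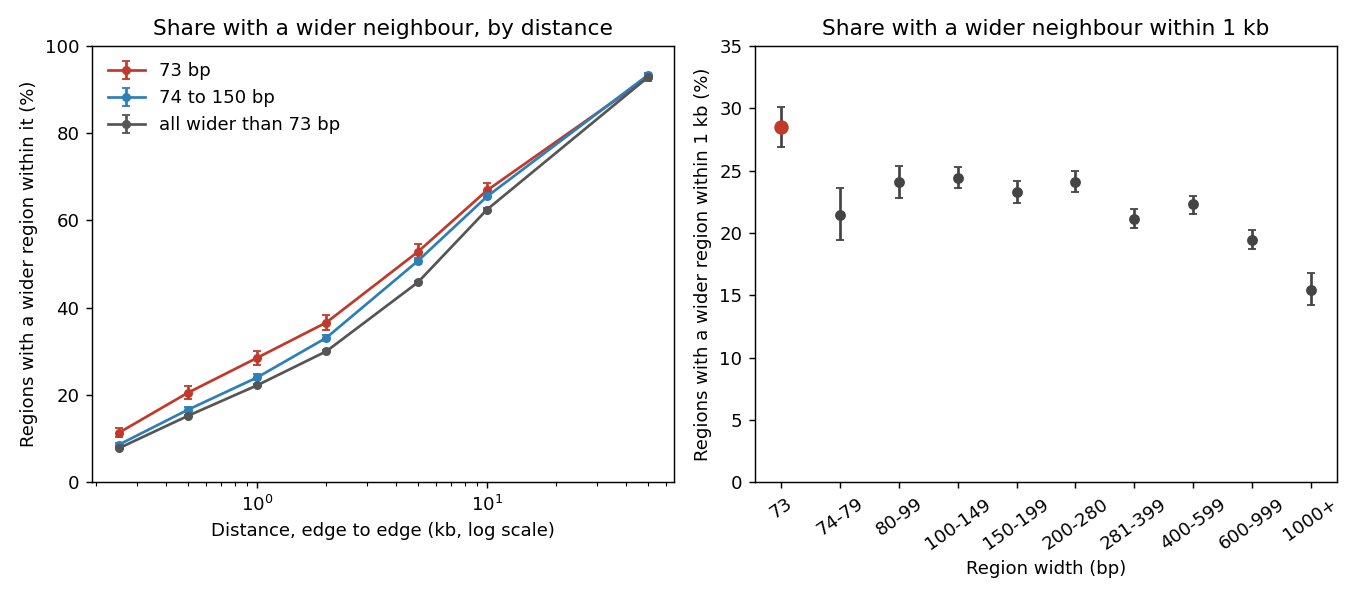
Left, share of regions in percent with a region wider than 73 bp within a given distance in kb (log scale), for regions of 73 bp, of 74 to 150 bp and of all wider widths. Right, the share with one within 1 kb by class of width, with 73 bp in red at 28.5% and the other classes between 15.4% and 24.4%; bars are 95% Wilson intervals.

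The closer spacing was found in each class of position. At gene ends, 174 of 281 regions of 73 bp (61.9%) had a wider region within 1 kb, against 53.2% of those of 74 to 150 bp, a difference of 8.68 points (2.37 to 14.7). For all wider regions at gene ends the share was 32.4%. It is not set against the 73 bp regions, because a wider region at the gene end cannot count as its own neighbour. Inside genes it was 26.0%, against 19.8% and 21.1%, with a difference from 74 to 150 bp of 4.89 points (2.38 to 7.53). Between genes it was 24.4%, against 19.4% and 20.8%, with a difference of 3.61 points (1.29 to 6.04). The neighbours themselves had a median width of 310 bp for the nearest wider region of a 73 bp region and 303 bp for that of a region of 74 to 150 bp. The nearest region of any width was itself 73 bp wide for 127 of them (4.16%), against 4.15% of the wider regions.

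Chromosomes carried similar shares of 73 bp regions. Over the 19 autosomes they made up 4.01% ± 0.370 of the regions (SD), from 3.22% on chromosome 6 (interval 2.73 to 3.81%) to 4.86% on chromosome 19 (4.02 to 5.88%). The X chromosome had 113 of 2545 (4.44%, 3.71 to 5.31%) and the Y chromosome 4 of 171 (2.34%, 0.913 to 5.86%). The share with a wider region within 1 kb was higher for 73 bp regions than for those of 74 to 150 bp on 20 of the 21 chromosomes, the exception being Y with 4 members. It averaged 28.7% ± 3.11 for 73 bp regions and 24.0% ± 1.33 for those of 74 to 150 bp (SD over 19 autosomes).

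**Figure D5:**
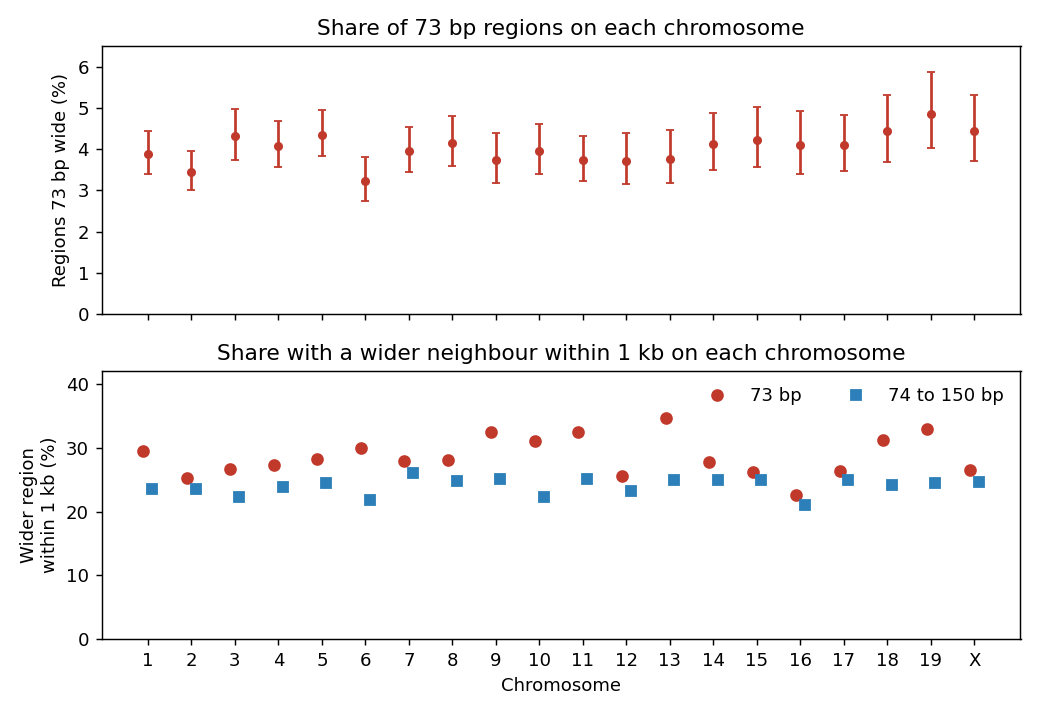
Above, share of the regions of each chromosome that were 73 bp wide, in percent, with 95% Wilson intervals, from 3.22% on chromosome 6 to 4.86% on chromosome 19. Below, share with a wider region within 1 kb, in percent, for 73 bp regions and for regions of 74 to 150 bp, with the 73 bp regions higher on each chromosome drawn (Y, with 4 regions of 73 bp, is left out).

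The 3054 regions were spread over 2748 windows of 100 kb, and 2478 of these held a single 73 bp region. Windows with 20 or more regions of any width held 50 of them (1.64%, 1.24 to 2.15%), against 1.43% of the wider regions. The window with the most was on chromosome 13, from 65300001 to 65400000, where 6 of 11 regions were 73 bp wide. It holds the zinc finger gene Zfp369 and the predicted genes Gm7762 and Gm31714. Those 6 regions lay at 65311028 to 65311100, 65336708 to 65336780, 65350846 to 65350918, 65375428 to 65375500, 65379063 to 65379135 and 65380613 to 65380685, and the second of them was the only one inside a gene, Gm7762. The windows with 4 were on chromosome 18, from 38300001, with 4 of 14 regions around Rnf14 and Gnpda1, and on chromosome 5, from 15600001, with 4 of 52 regions around Speer4d.

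The extremes of spacing differed by place. The most isolated 73 bp region, on the Y chromosome at 59433647 to 59433719, was 846 kb from any other, and Gm21843 was its nearest protein-coding gene at 397 kb. The next were on X at 524 kb (nearest gene Gm7950), on Y at 401 kb (Gm21805), and on X at 310 kb (Gm1993) and 244 kb (H2al1j). All 5 lay between genes, on sex chromosomes. Gaps among the wider regions reached 6700 kb, so isolation is not read as a trait of the 73 bp regions. The most crowded 73 bp regions, at gaps of 163 or 164 bp, were 2 at gene ends (Kctd18 and Map3k2), 2 inside genes (Nexmif and Lrrk2) and 1 between genes, nearest to Aipl1. Their neighbours were 652, 655, 521, 161 and 142 bp wide, in that order of genes.

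Few genes had a 73 bp region at an end, and for most of those it was an addition to a wider region. Of 21887 protein-coding genes, 310 (1.42%, interval 1.27 to 1.58%) had a 73 bp region within 1 kb of an end, while 60% had a wider one. For 235 of the 310 (75.8%) a wider region lay at an end as well, and for 75 (24.2%) the 73 bp region was the sole kind. A 73 bp region lay near both ends of 9 genes, in 7 of them because 1 region was within reach of both ends of a short gene. In alphabetical order the first 5 were Ascl5, Creg1, Foxb2, Fthl17c and H4c18, and of these Creg1 alone had a separate region at each end.
A 73 bp region touched 1385 genes (6.33%), 139 of them (0.635%) with 2 or more and 35 (0.160%) with 3 or more. Genes touched by a 73 bp region were long, with a median of 69.4 kb, against 23.7 kb for genes touched by wider regions only and 17.2 kb for all. A long gene offers more room for any region, so this order could be foreseen and is not read as a trait of the 73 bp regions.

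The most 73 bp regions touching 1 gene was 4. Of the first 10 such genes, 8 were protocadherin genes of the gamma cluster on chromosome 18, Pcdhga1 to Pcdhga6 and Pcdhgb1 and Pcdhgb2, which encode cell adhesion molecules and share their last exons, so that the same 4 regions were counted in each. The shortest, Pcdhga6, spans 135 kb and was touched by 25 wider regions, and the longest, Pcdhga1, spans 180 kb and was touched by 34. The others were Gm7592, a predicted gene of chromosome 1 with 37 wider regions in 229 kb, and Stox2, a gene of chromosome 8 with a winged-helix domain, with 15 wider regions in 234 kb. In Stox2 the 73 bp regions were 21.1% of all regions touching the gene.

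Core pluripotency genes encode the factors that hold stem cells in the undifferentiated state. Of 23 such genes, Pou5f1 alone had a 73 bp region at an end, while 21 had a wider one. Pou5f1 encodes Oct4, and its 73 bp region at chr17:35509999-35510071 lay inside the gene, 742 bp from the far end and 348 bp from a region of 375 bp. Klf4, a zinc finger reprogramming factor, had a 73 bp region at chr4:55531386-55531458, 1053 bp inside its start and 835 bp from the region of 1019 bp that spans the start. Nr5a2, an orphan nuclear receptor, had one at chr1:136953115-136953187, 7.30 kb inside its start and 205 bp from a region of 99 bp. The remaining 20 had none at an end or touching the gene. Over all protein-coding genes the shares were 1.42% at an end and 6.33% touching, and the core pluripotency genes had 4.35% and 13.0%, which rest on 1 and 3 genes. Feeder fibroblast genes, a check on the other cells in the culture, had none of 22 at an end and 1 touching, in Fn1, which encodes fibronectin. A wider region lay at an end of 9 of these 22.

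Genes of LIF, Wnt and FGF signalling, on which the culture medium acts, had 73 bp regions in their bodies. None of the 31 had one at an end, and at the 1.42% of all protein-coding genes that did, 31 genes are too few to show a lack. Of 31, 8 (25.8%) were touched, against 6.33% of all protein-coding genes, namely Axin1, Etv5, Gsk3b, Lef1, Map2k1, Sos1, Tcf7l1 and Tcf7l2. Gsk3b and Map2k1 encode the kinases GSK3 beta and MEK1, both targets of the inhibitors in the medium. Gsk3b held 2 of these regions, 25.3 kb inside its start and 3.23 kb inside its far end, and that of Map2k1 lay 14.3 kb inside its far end. In Tcf7l1, a gene of 163 kb for a factor that represses Wnt targets, the 73 bp region was 176 bp from a region of 109 bp and was accompanied by 19 wider regions. The part of gene length in the share of 25.8% was not tested.

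Among cell cycle genes, Cdkn1a had the 73 bp region whose sequence is shown above as the sole region at an end. Its midpoint was 21 bp from the outermost start of the gene, at chr17:29090922-29090994, and the nearest wider region, of 759 bp, lay 2330 bp away. The gene was also touched by 3 wider regions, with midpoints more than 1 kb from its ends. Of 24 G1/S genes, Cdkn1a was the 1 with a 73 bp region at an end, and Ccnd1, Ccnd3 and E2f3 had one farther inside. Of 24 G2/M genes, none had a 73 bp region at an end or touching, while 23 had a wider region at an end. Over all protein-coding genes the shares were 1.42% at an end and 6.33% touching. At these shares, lists of 23 or 24 genes are too short to show a lack or an excess. Of 24 housekeeping genes, none had one at an end, and Eef2 and Pgk1 were touched. Of 23 chromatin architecture genes, Yy1 had one at an end, 422 bp from its start and 222 bp from a region of 921 bp, and Esco1 was touched.

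Among immediate early genes, Jun had a 73 bp region 799 bp inside its start, 179 bp from a region of 1119 bp, and it was the only 1 of 20. Over all protein-coding genes 1.42% had one at an end, so counts of 1 to 3 genes per list are not read as a trait of the list. Jun encodes a subunit of the AP-1 transcription factor. Ribosomal protein genes, which are expressed in every cell, had one at an end in 3 of 84 cases, Rpl31, Rpl39 and Rps15a. At Rpl31 and Rpl39 it lay 537 and 348 bp from the start, at gaps of 223 and 184 bp to regions of 356 and 713 bp, and at Rps15a it lay 494 bp from the far end. Replication-dependent histone genes had 1 of 67 (1.49%), H4c18, and 65 had a wider region at an end. At H4c18 the 73 bp region was 196 bp from the far end of the gene and 229 bp from a region of 423 bp.

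For developmental regulators, some 73 bp regions were the sole kind at the gene. Lists of 16 to 20 genes are too short to be set against the shares of all protein-coding genes, 1.42% at an end and 6.33% touched. Of 20 mesoderm genes, T and Tbx6 had a 73 bp region and no wider one at their ends. T encodes brachyury, the T-box factor of the primitive streak, and its region at chr17:8434085-8434157 lay 302 bp upstream of the start and 3924 bp from the nearest wider region. Tbx6, a T-box factor of the paraxial mesoderm, had its region at chr7:126780723-126780795, 724 bp upstream of the start and 489 bp from a region of 151 bp. Neither gene was touched by a wider region. Of the 18 genes listed as endoderm, Cdx2 and Cxcr4 had a 73 bp region at an end, 146 and 570 bp from the start. Each had a wider region at an end too, and Cdx2 was counted in this list and not in the trophoblast list. Of 16 trophoblast genes, Tead4 had one, 828 bp from an end and 197 bp from a region of 658 bp. Of 20 ectoderm and neural genes, none had one at an end, and Pax6 and Zic1 were touched, Pax6 by 2. Pax2 of the mesoderm list, Foxa1 of the endoderm list and Tfap2a of the trophoblast list had a 73 bp region farther inside. These genes were also touched by 4, 3 and 4 wider regions, in that order.

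Large gene families are read against the shares of all protein-coding genes, 1.42% at an end, 6.33% touched and 60% with a wider region at an end. Of 367 genes named Zfp, which encode zinc finger proteins, 5 (1.36%) had a 73 bp region at an end, namely Zfp1, Zfp534, Zfp566, Zfp641 and Zfp65, although 84.5% had a wider one, and 28 (7.63%) were touched. At Zfp65 and Zfp641 the 73 bp region was the sole kind at an end. Of 39 Hox genes none had one at an end or touching, which are too few genes to show a lack, and 19 had a wider region at an end. Of 1106 olfactory receptor genes none had one at an end or touching, and of 353 vomeronasal receptor genes none had one at an end and 2 (0.567%) were touched, Vmn2r25 and Vmn2r97. These receptor genes are silent outside sensory neurons, and 2.44% and 1.70% of them had a wider region at an end.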

How the data were processed

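The authors deposited 1 list of regions for the 8 libraries, in which the values are other than a measurement, namely chromosome, start and end in bp, with no counts. Per the submitters' processing notes, cutadapt, Bowtie2, Picard, SAMtools, bedtools and MACS2 2.1.1 and the build GRCm38 (mm10) were used. The sources used here do not give their parameters, the Tn5 shift or the merging of libraries, so why the list ends at 73 bp was not tested. The members and the 18 gene lists were chosen with earlier results of these data known, and so were the distances of 1 kb and less to neighbours and the p53 motif.

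Regions were placed by their midpoints, because a wide region touches a window more easily than a narrow one, relative to the outer limits of 21900 protein-coding genes (21887 on the 21 chromosomes with regions) of RefSeq GRCm38.p6. Start sites and sequences came from the RefSeq promoter windows (32851 windows of 27025 genes). A wider region was any over 73 bp. Intervals are Wilson for shares, Newcombe for differences and order-statistic for medians. No p-value was computed. Of the planned steps, those that need a value per library were not run, and no sample entered a test. Of the written gene names, 1 was not found. The labels name total RNA as the molecule, while titles and protocol describe ATAC-seq, which was followed here.

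Genes were named by rule: core pluripotency genes with a 73 bp region at an end or inside; the 10 genes touched by the most; up to 3 per other list with one at an end; the first 5 with one at both ends; those nearest to the 5 most isolated and the 5 most crowded; and the fullest windows. Other genes were chosen after their values were seen. Python 3.11.15, NumPy 2.4.6, pandas 2.3.3, SciPy 1.17.1 and matplotlib 3.10.9 were used. The code was tested on simulated data, with 0 disagreements in 4800 direct counts of class, distance and gap.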

Additional observations from a re-analysis of the deposited data

How the results depend on the processing

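No paired analysis was possible because the regions carry no values by library. For the same reason the alternatives for values per library were not run, and what depth limits cannot be said. Of 62 alternatives for the 6 differences from wider regions, 55 kept the direction and an interval without 0.

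Against regions of 74 to 150 bp, the interval held 0 for the shares at gene ends (-0.460 points), inside genes (1.18) and between genes (-0.716, the opposite sign), and for the median distance to a gene end (0.159 kb). For the share with a wider neighbour it held 0 at 50 kb (0.0522 points against all wider regions, -0.515 against those of 74 to 150 bp) and at 10 kb against those of 74 to 150 bp (1.41). Distances of 1 kb or less and of 50 kb were chosen after seeing the data, as was the pairing of 10 kb with 74 to 150 bp.

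The share of genes with a 73 bp region at an end was 0.699% with a window of 500 bp, 2.50% with 2 kb, 1.01% of genes of every type and 1.13% at outermost starts alone. Regions of 80 bp or less made up 6.14% of the atlas. Each setting changes what is counted, and the cause of each shift was not tested.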
